A study of Mus musculus with 6 samples.

Results

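The genes described here are the amino acid transporters of the Slc1, Slc6, Slc7, Slc36, Slc38 and Slc43 families other than xCT. They were taken by symbol alone, with no measured value in the rule, and make up 58 of the 21853 genes in the table. The rule itself was chosen with earlier results of these data known. Slc7a11, which encodes xCT, was left out, and the lettered symbols Slc6a20a and Slc6a20b do not match the pattern. The cells were mouse embryonic fibroblasts, connective tissue cells grown from embryos, of the C57BL/6J strain with a labelled age of 12 days. All 6 libraries came from xCT knockout cells. In 3 of them (control) the cells were given water, and in 3 (RCE) red clover extract, so no library shows these carriers in cells that have xCT. The dose, the exposure time, the number of knockout lines and the medium are not given in the sources used here. Nothing in the labels ties replicates to separate cultures, so each p-value rests on a spread among libraries that could be technical.

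Amino acids cross cell membranes through carrier proteins, and each family has its own way of driving them. Slc1 carriers use sodium and move glutamate or small neutral amino acids, Slc6 carriers use sodium and chloride for neurotransmitters, osmolytes and neutral amino acids, and Slc38 carriers use sodium for glutamine and other small neutral ones. Some Slc36 carriers, such as Slc36a1, use protons, and Slc43 carriers work by facilitated diffusion. Slc7 holds the cationic carriers and the light chains, exchangers that reach the cell surface bound to a heavy chain such as Slc3a2. xCT is one of these light chains and trades glutamate for cystine, the oxidised form of cysteine. Carriers of system ASC are named for alanine, serine and cysteine, the reduced form.

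The targeted gene was near the floor. Slc7a11 (ENSMUSG00000027737, chromosome 3, 49892526 to 50443614 on mm10, minus strand) lay between 0.007 and 0.037 FPKM over the 6 libraries, or 3.6 to 16.9 fragments on its longest transcript. FPKM are fragments scaled by transcript length and by library depth, so they can be compared between genes. The library depth, recovered from the steps between low values, was 45700000 to 59000000 fragments, at which 1 fragment on a transcript of 2000 bases is worth 0.00847 to 0.0109 FPKM. Intervals and floors from such counts cover counting error only. Replicate 1 of both groups stood apart from replicates 2 and 3, so results that rest on this are given with the replicate number as a block and without both libraries numbered 1. All 10 fibroblast markers reached a mean of 1 FPKM, with 3823 to 4270 FPKM in sum. Their levels were uneven: Vim and Col1a1 had means of 1558 and 1208 FPKM, while Pdgfra, Lum and Fap had 2.82, 1.73 and 1.51 FPKM.

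In cells lacking xCT, 25 of the 58 genes were expressed, defined as 1 FPKM or more on average across all libraries. Each of these 25 also reached 1 FPKM in every library. A further 5 were low (a mean of 0.1 to 1 FPKM), 19 were near the floor (below 0.1) and 9 were listed at 0 in all libraries. The Slc38 family had 7 of 11 genes expressed, Slc7 and Slc6 had 6 of 14 and 6 of 19, Slc1 had 3 of 7, Slc36 had 2 of 4 and Slc43 had 1 of 3. With a minimum mean of 5 FPKM, 15 genes would count as expressed.

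Slc7a5 (LAT1), the exchanger for leucine and other large neutral amino acids, had the highest level. It was at 124.1, 125.8 and 123.2 FPKM in control replicates 1, 2 and 3, and at 120.4, 122.1 and 124.2 FPKM with the extract. It made up 17.4 to 18.9% of the summed FPKM of the 58 genes in a library and ranked 410 among all genes by its mean. The groups overlapped, and the 6 values spanned a narrow range. Its relatives for the same substrates were much lower: Slc7a8 (LAT2) was at 0.157 to 0.218 FPKM, Slc43a1 (LAT3) at 0.444 to 0.611 and Slc43a2 (LAT4) at 0.665 to 0.927 FPKM. Large neutral amino acids therefore had 1 abundant carrier among the 8 genes of that class, beside Slc6a17 at a mean of 4.64 and Slc6a15 at 1.51 FPKM over the 6 libraries.

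After Slc7a5 came Slc38a2 (SNAT2), the sodium-coupled carrier of system A that responds to amino acid supply, with a mean of 75.8 FPKM, and Slc6a8, the creatine carrier, with 74.6 FPKM. Slc6a9 (GlyT1, glycine), Slc1a4 (ASCT1, of system ASC) and Slc7a1 (CAT1, arginine and lysine) followed at 54.4, 53.1 and 52.6 FPKM. The libraries do not order these 3: Slc6a9 ran from 48.6 to 62.8 FPKM, across the whole range of Slc1a4 (50.9 to 56.0) and Slc7a1 (50.7 to 53.8). Exons of Slc6a9 share 30.2% of their bases with genes on the opposite strand, B4galt2 and Ccdc24 among them, and whether counting used strand is not stated. Next were Slc38a10 (36.9 FPKM), Slc38a7 (34.1), a lysosomal carrier of glutamine and asparagine, Slc6a6 (34.1), the taurine carrier, Slc38a1 (29.6), SNAT1 of system A, and Slc1a5 (28.6), the ASCT2 exchanger of glutamine. In each library the 10 most abundant genes held 82.2 to 85.4% of the summed FPKM.

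Some expressed genes are better known from other tissues. Slc1a6 (EAAT4), the glutamate carrier of Purkinje neurons, was at 6.50, 7.88 and 8.50 FPKM in water-treated cells and 8.34, 10.6 and 11.002 FPKM with the extract. It was the only expressed gene among the 6 acidic amino acid carriers: Slc1a1, Slc1a2, Slc1a3, Slc1a7 and Slc7a13 each stayed at 0.156 FPKM or below in every library. Slc7a3 (CAT3), a cationic carrier described in brain, had a mean of 19.0 FPKM, above its relative Slc7a2 at 2.52. Of the neuronal and glial markers reported, Tubb3 was at 9.77 to 12.4 FPKM, while Map2, Sox10, Gfap and Rbfox3 were at 0.354 FPKM or below. The 3 monoamine carriers (Slc6a2, Slc6a3 and Slc6a4) were all near the floor, at 0.103 FPKM or below.

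The remaining expressed genes lay between 1.51 and 13.8 FPKM. Slc7a6 (y+LAT2), a light chain that trades cationic for neutral amino acids, was at 13.8 FPKM and Slc36a1 (PAT1), a proton-coupled lysosomal carrier, at 8.82. Slc43a3, which carries purine nucleobases rather than amino acids, was at 4.55, Slc38a4 (SNAT4, system A) at 4.50 and Slc36a4 (PAT4, proline and tryptophan) at 4.25 FPKM. Slc7a7 (y+LAT1), the other light chain for cationic amino acids, was at 3.10 FPKM, and Slc6a12, the betaine and GABA carrier, at 2.61. Slc38a6 (1.91) and Slc38a9 (1.51), the lysosomal carrier that signals arginine to mTORC1, were lowest together with Slc6a15. Of the low genes not named so far, Slc7a4 was at 0.246 to 0.386 FPKM and Slc1a3, a glutamate carrier of astrocytes, at 0.069 to 0.156. The plot of levels by library shows the 25 expressed and the 5 low genes.

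**Figure D1:**
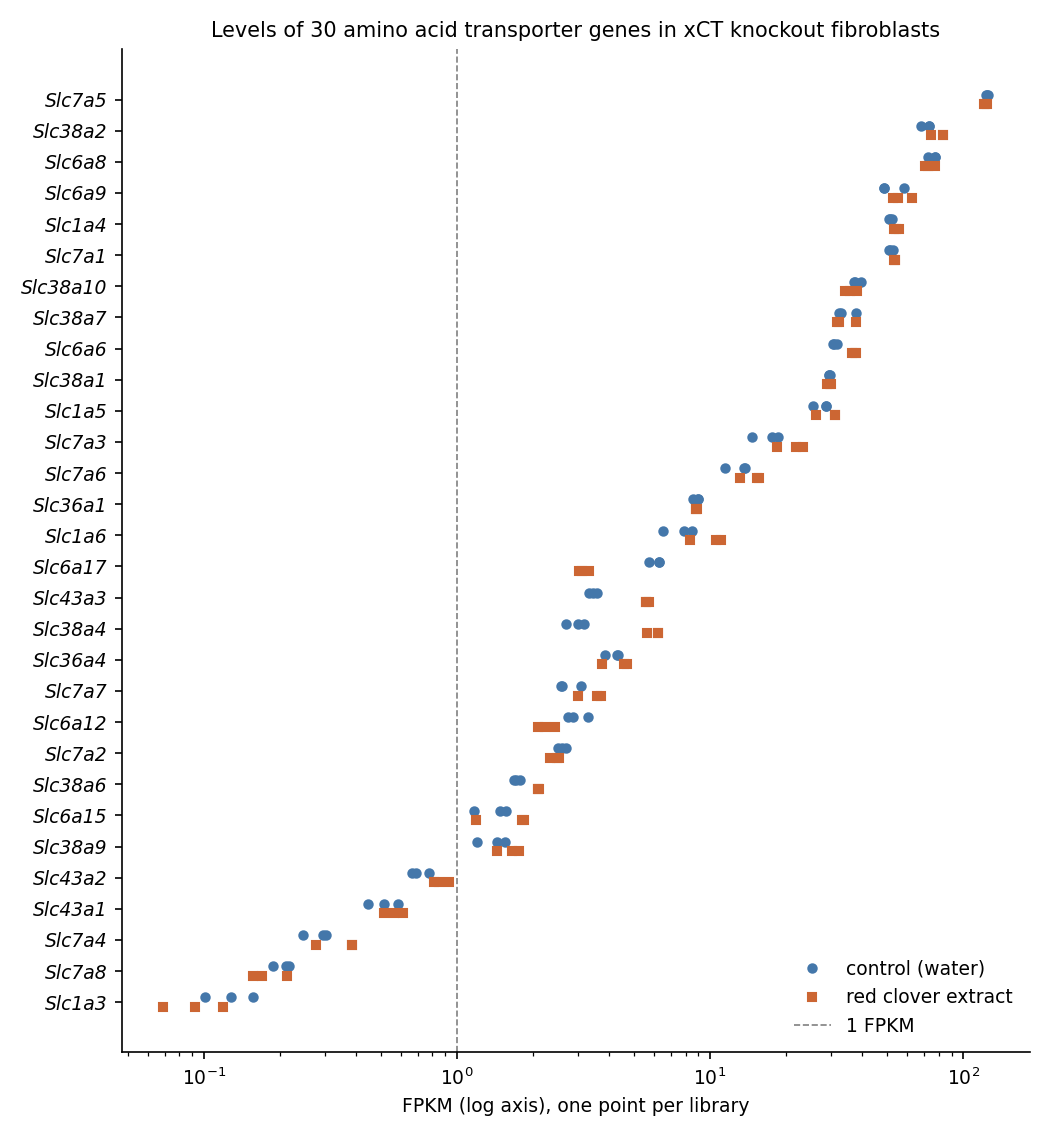
FPKM (log axis) of the 25 expressed and 5 low transporter genes, ordered by mean, with 1 point per library (circles control, squares red clover extract) and a dashed line at 1 FPKM. Slc7a5 lies at 120.4 FPKM or above in all 6 libraries, and the groups are clearly apart for Slc6a17, Slc43a3 and Slc38a4.

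With the extract, 4 transporter genes rose and 2 fell. Slc38a4, Slc43a3, Slc6a6 and Slc38a6 were higher, Slc6a17 and Slc6a12 were lower, and the other 19 did not pass the threshold. The 6 are 24.0% of the 25 tested genes, against 24.3% of all 10870 genes tested (17.6% higher, 6.77% lower), so the share called was that of the background. The test was limma on log2(FPKM + 1) with Benjamini-Hochberg adjustment over all tested genes and a threshold of 0.05. Changes below are differences on that scale, extract minus control, and understate the change of low genes. The median change was 0.08 for the 25 genes and 0.08 for all tested genes. Median-of-ratios scaling of the libraries took both medians to 0.00, and then 2 transporter genes were higher and 2 lower (8.4% and 9.95% of all genes, and 50% of calls higher against 66.7% without it, and 45.8% against 72.2% for all genes). The 3 values of each group did not overlap for 9 of the 25 genes, 7 higher and 2 lower, or 36%, against 42.2% of all tested genes (31.2% higher, 10.9% lower). After median-of-ratios scaling 4 were higher and 7 lower without overlap, or 44%, against 36.7% of all tested genes. The 6 called genes stayed apart, while Slc38a2, Slc1a4 and Slc7a1 then overlapped and Slc7a5, Slc38a10, Slc38a1, Slc36a1 and Slc7a2 were lower without overlap. With no filter on low values, limma also tested 24 transporter genes below 1 FPKM and called 1 of them, Slc1a7, lower, where 16.6% of 17334 genes were called (11.3% higher, 5.24% lower).

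**Figure D2:**
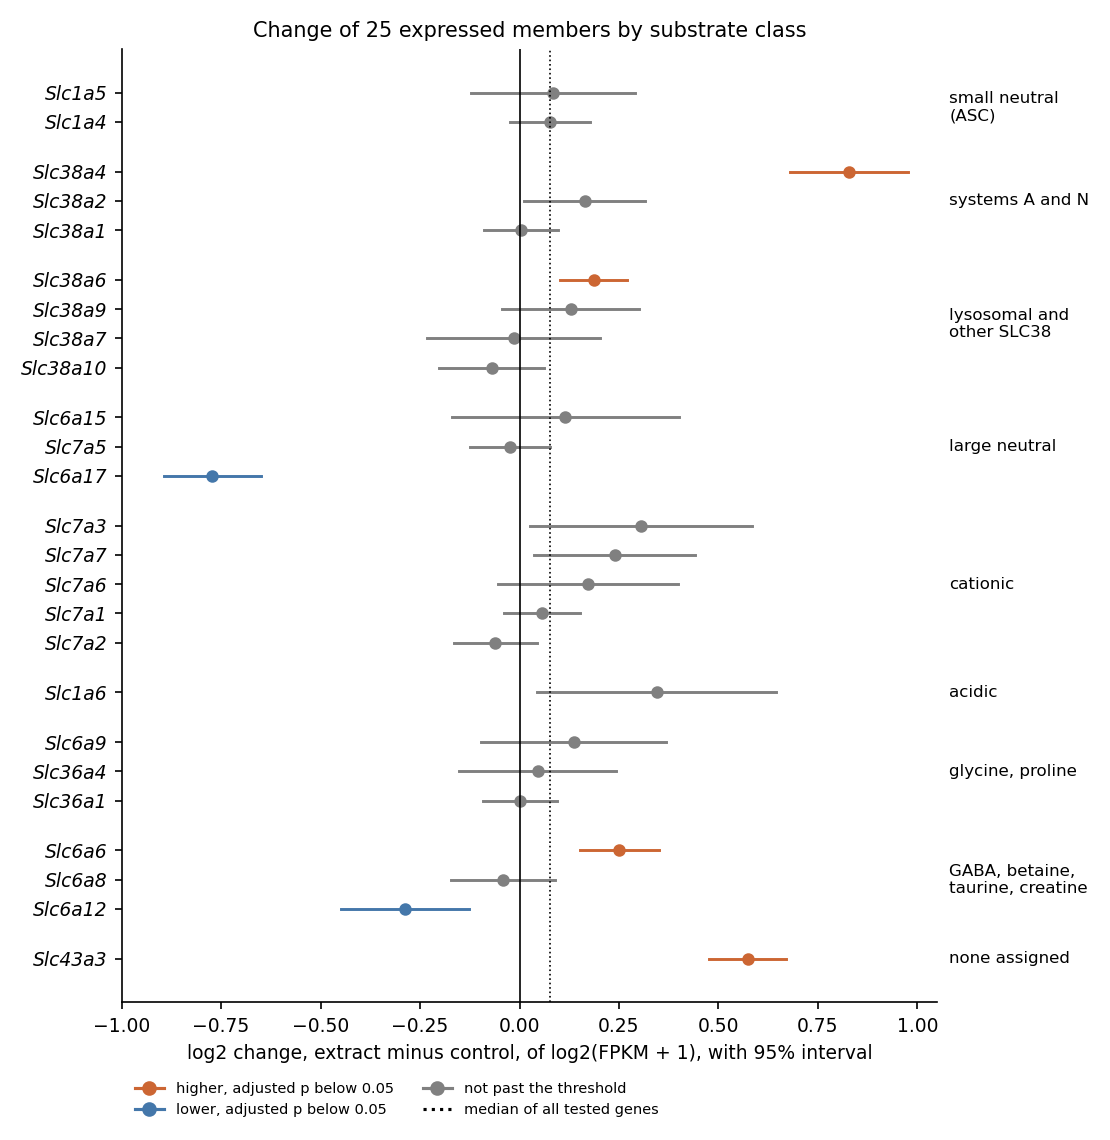
Change of the 25 expressed genes by substrate class, as the difference of log2(FPKM + 1), extract minus control, with the 95% interval from limma; orange is higher and blue lower at an adjusted p below 0.05, grey did not pass. Slc38a4 (0.83) and Slc6a17 (-0.77) lie farthest from 0 in opposite directions, and the dotted line marks the median of all tested genes (0.08).

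Slc38a4 rose most. This gene (ENSMUSG00000022464, chromosome 15, 96994820 to 97055956 on mm10, minus strand) encodes SNAT4, a system A carrier of small neutral amino acids best known from liver and placenta and expressed from the paternal allele. It was at 2.71, 3.02 and 3.17 FPKM in control replicates 1, 2 and 3, and at 5.65, 6.22 and 6.23 FPKM with the extract. Every library with extract was above every control library. The group means were 2.96 ± 0.236 and 6.04 ± 0.335 FPKM (SD, n = 3), a 2.04-fold ratio (log2 change 0.83, SE 0.06, limma adjusted p = 5.96e-04). Slc38a1 and Slc38a2 lie beside it on chromosome 15 with no other protein-coding gene between them, at gaps of 44478 bases (Slc38a1 to Slc38a2) and 295089 bases (Slc38a2 to Slc38a4). These neighbours changed by 0.00 and 0.16 on the log2 scale and did not pass the threshold.

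Slc43a3 (ENSMUSG00000027074, chromosome 2, 84936579 to 84958509, plus strand) also rose. It was at 3.58, 3.33 and 3.46 FPKM in water-treated cells and 5.60, 5.72 and 5.58 FPKM with the extract. The groups were far apart relative to their spread, 3.46 ± 0.125 against 5.63 ± 0.0752 FPKM (SD, n = 3, log2 change 0.57, SE 0.04, limma adjusted p = 4.64e-04). Its family members Slc43a1 and Slc43a2, which do carry amino acids, were under the filter on low values. Slc43a2 was at 0.711 ± 0.0588 and 0.863 ± 0.0597 FPKM without overlap of the groups (with overlap after median-of-ratios scaling), and Slc43a1 at 0.515 ± 0.0715 and 0.563 ± 0.0475 FPKM with overlap (SD, n = 3).

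Slc6a6 (ENSMUSG00000030096, chromosome 6, 91684053 to 91759066, plus strand) encodes the taurine carrier, which also takes up beta-alanine. It was at 31.8, 30.5 and 30.7 FPKM in water-treated cells and 37.7, 37.2 and 36.4 FPKM with the extract. The groups did not overlap, and the means were 31.0 ± 0.674 and 37.1 ± 0.668 FPKM (SD, n = 3, log2 change 0.25, SE 0.04, limma adjusted p = 0.00827). The call ended with median-of-ratios scaling (0.17, limma adjusted p = 0.0561) and without RCE replicate 2 (0.25, limma adjusted p = 0.0513). Slc38a6 (ENSMUSG00000044712, chromosome 12, 73286779 to 73354049, plus strand) is a less studied member of its family. It went from 1.71, 1.78 and 1.68 FPKM in control to 2.11, 2.09 and 2.09 FPKM with the extract, again without overlap (log2 change 0.19, SE 0.04, limma adjusted p = 0.0136). Its call ended with median-of-ratios scaling (limma adjusted p = 0.0530) and quantile normalization (0.209). It also ended without control replicate 3 (limma adjusted p = 0.0577), RCE replicate 2 (0.0634) or RCE replicate 3 (0.0544).

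Slc6a17 fell most. The gene (ENSMUSG00000027894, chromosome 3, 107467543 to 107518018, minus strand) encodes NTT4, a carrier that loads neutral amino acids into synaptic vesicles of neurons. It was at 6.26, 6.30 and 5.76 FPKM in water-treated cells and 3.33, 3.03 and 3.12 FPKM with the extract. All 3 control libraries were well above the libraries with extract. The means were 6.11 ± 0.304 and 3.16 ± 0.153 FPKM (SD, n = 3), a ratio of 0.518 (log2 change -0.77, SE 0.05, limma adjusted p = 3.67e-04). Its closest relative by substrate, Slc6a15 (B0AT2), a carrier of branched-chain amino acids and proline, was at 1.403 ± 0.210 and 1.61 ± 0.368 FPKM (SD, n = 3) and did not pass (log2 change 0.12, 95% interval -0.17 to 0.40).

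Slc6a12 (ENSMUSG00000030109, chromosome 6, 121343076 to 121365775, plus strand) encodes BGT1, which takes up the osmolyte betaine and GABA. It was at 2.87, 3.29 and 2.76 FPKM in water-treated cells and 2.23, 2.09 and 2.44 FPKM with the extract. The groups did not overlap, at means of 2.97 ± 0.280 and 2.25 ± 0.172 FPKM (SD, n = 3, log2 change -0.29, SE 0.07, limma adjusted p = 0.0254). The call ended without control replicate 2 (-0.23, limma adjusted p = 0.0696) and without RCE replicate 2 (-0.25, limma adjusted p = 0.0985). Its neighbour Slc6a13, 5342 bases away on the same strand, was listed at 0 in all 6 libraries. The osmolyte and creatine class thus had 1 gene higher (Slc6a6), 1 lower (Slc6a12) and 1 that did not pass, Slc6a8 at 75.6 ± 2.69 and 73.5 ± 3.44 FPKM (SD, n = 3, log2 change -0.04, 95% interval -0.17 to 0.09).

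**Figure D3:**
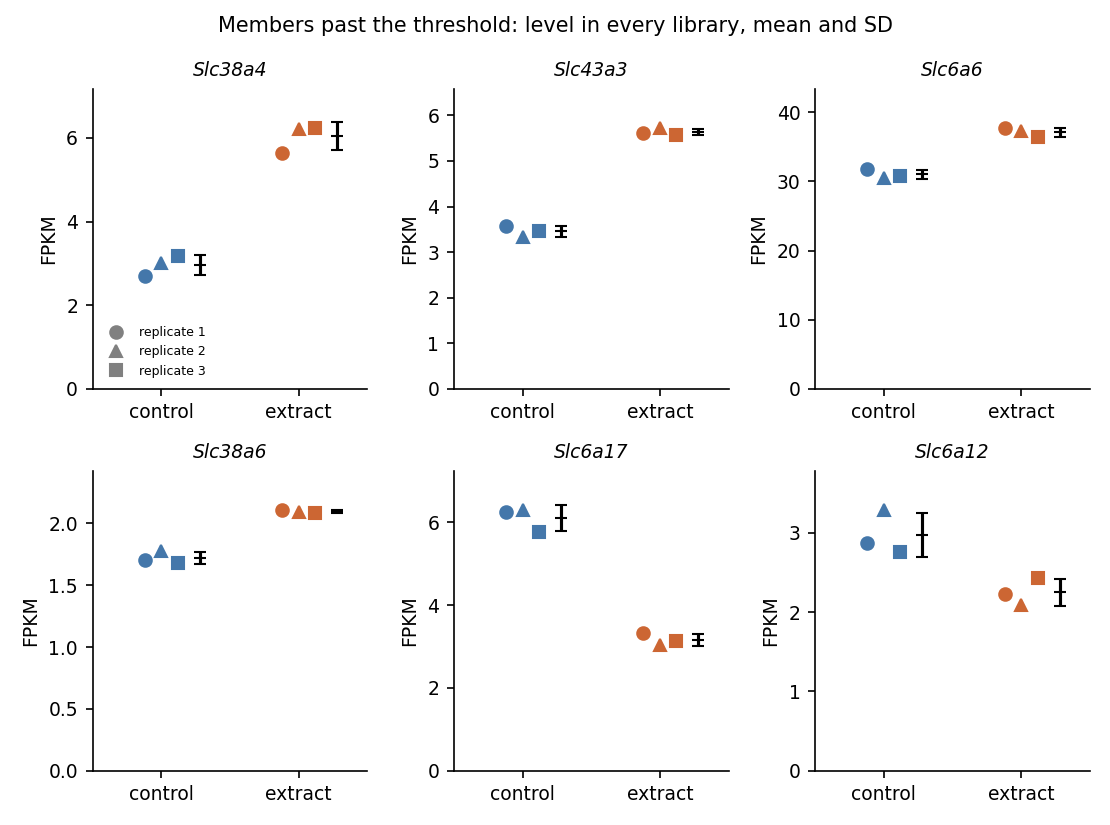
FPKM of the 6 transporter genes past the threshold in each library (marker shape gives the replicate number) with the mean and SD of 3 beside them; every y axis starts at 0. In all 6 panels the control and extract values do not overlap, and Slc38a4 and Slc6a17 have the widest gaps relative to their level.

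The sequence before the start site is shown for the gene that rose most and the gene that fell most. Both come from RefSeq on GRCm38.p6, cover 250 bases that end just before the annotated start of the gene, and are read 5′ to 3′ on the gene's strand. Capitals mark a match to 1 of 4 short motifs searched on both strands: ACGTG (core of the hypoxia response element), CACGTG (E-box, which contains that core), TGATGNAA (core of the amino acid response element) and TGACTCA or TGAGTCA (AP-1 site).
Slc6a17, chr3:107518019-107518268, minus strand: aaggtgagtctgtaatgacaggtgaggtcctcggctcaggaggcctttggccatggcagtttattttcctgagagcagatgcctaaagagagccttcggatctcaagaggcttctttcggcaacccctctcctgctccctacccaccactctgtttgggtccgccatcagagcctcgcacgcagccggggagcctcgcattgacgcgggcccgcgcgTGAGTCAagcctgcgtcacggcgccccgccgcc
Slc38a4, chr15:97055957-97056206, minus strand: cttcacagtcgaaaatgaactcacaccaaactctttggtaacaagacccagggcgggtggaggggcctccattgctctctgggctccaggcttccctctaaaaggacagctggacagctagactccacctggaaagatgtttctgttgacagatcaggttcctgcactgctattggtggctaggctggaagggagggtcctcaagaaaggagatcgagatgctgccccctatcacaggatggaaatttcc
Slc6a17 held an AP-1 match, TGAGTCA, whose first base lies 33 bases before the start site, and Slc38a4 held none of the 4 motifs in this window. RefSeq also lists another start site for Slc6a17 and others for Slc38a4, and the 250 bases before these held none of the motifs. Which start site these cells use was not tested. RefSeq promoter windows of 300 bases were found for 40 of the 58 genes and for 16 of the 25 expressed ones. An AP-1 match was present in 6.45% of the 31 windows of expressed members and in 5.20% of all 32851 windows. Slc7a1 held the other one. The amino acid response core was present in 9.68% against 3.97%, in Slc1a4 (TTGCATCA on the strand shown) and in the windows of 2 start sites of Slc7a7. Those 2 windows overlap and hold the same TGATGCAA site, and 1 of them also holds TGATGAAA. The hypoxia core was present in 25.8% against 19.6% and the E-box in 9.68% against 7.15%. A hypoxia core in Slc7a6 and another in Slc7a7 also lay in 2 overlapping windows each. These shares count windows, so 1 site can enter them more than 1 time. These matches describe letters in the windows and were not tested for binding.

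For 7 of the 25 genes the 95% interval of the change lay within 0.2 of 0 on the log2 scale, and these were Slc7a5, Slc38a1, Slc36a1, Slc1a4, Slc7a1, Slc6a8 and Slc7a2. These intervals belong to the deposited values. With median-of-ratios scaling, Slc7a5, Slc6a8 and Slc7a2 changed by -0.11, -0.13 and -0.12. Slc7a5 was at 124.3 ± 1.34 FPKM in water-treated cells and 122.2 ± 1.88 FPKM with the extract (SD, n = 3, log2 change -0.02, 95% interval -0.12 to 0.08). Slc38a1 was at 29.6 ± 0.0989 and 29.6 ± 0.537 FPKM (log2 change 0.00, 95% interval -0.09 to 0.10). Slc36a1 was at 8.82 ± 0.222 and 8.83 ± 0.0512 FPKM (log2 change 0.00, 95% interval -0.09 to 0.10). For Slc38a1 and Slc36a1 the sign turned with the scaling. Slc7a1, the main carrier of arginine, was at 51.6 ± 0.959 and 53.6 ± 0.223 FPKM without overlap of the groups (log2 change 0.06, 95% interval -0.04 to 0.15), and its sign also turned with median-of-ratios scaling. Slc7a2, the cationic carrier CAT2, was at 2.598 ± 0.0966 and 2.45 ± 0.108 FPKM (log2 change -0.06).

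Further genes that did not pass had wider intervals. The lysosomal Slc38a7 was at 34.2 ± 2.92 and 33.9 ± 3.41 FPKM (SD, n = 3, log2 change -0.01, 95% interval -0.23 to 0.20). Slc38a10 was at 37.8 ± 1.28 and 36.03 ± 1.92 FPKM and lower with the extract in 3 of 3 pairs (log2 change -0.07, 95% interval -0.20 to 0.06). Slc36a4 was at 4.16 ± 0.281 and 4.33 ± 0.511 FPKM (log2 change 0.05, 95% interval -0.15 to 0.24), and its sign turned with the scaling. Slc6a9, the glycine carrier, was at 51.8 ± 5.46 and 57.0 ± 5.29 FPKM (log2 change 0.14, 95% interval -0.10 to 0.37), and Slc38a9 at 1.395 ± 0.175 and 1.62 ± 0.158 FPKM (log2 change 0.13, 95% interval -0.04 to 0.30). The groups overlapped for each of these genes.

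The genes of system ASC, whose substrates include cysteine, did not pass either. Slc1a4 was at 51.5, 50.9 and 52.5 FPKM in water-treated cells and at 53.4, 54.2 and 56.0 FPKM with the extract, so the groups did not overlap but lay close together (log2 change 0.08, 95% interval -0.02 to 0.18, limma adjusted p = 0.232). Slc1a5 was at 25.6, 28.7 and 28.8 FPKM and at 26.1, 31.1 and 31.2 FPKM, with replicate 1 lowest in both groups (log2 change 0.08, 95% interval -0.12 to 0.29, limma adjusted p = 0.519). The asc exchanger Slc7a10 was listed at 0 in all libraries. The summed FPKM of this class was 79.3 ± 2.14 in water-treated cells and 84.0 ± 3.96 with the extract (SD, n = 3), with overlap of the groups.

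The same-numbered libraries deviated together from their group means (correlations of 0.92, 0.62 and 0.68 across genes). However, control replicates 2 and 3 correlated more with RCE replicates 3 and 2 (0.77 and 0.72). The correlations thus set replicate 1 apart but do not show which of replicates 2 and 3 belong together. With the replicate number as a block 13 transporter genes were higher and 2 lower. All 6 calls above held, and 9 genes were added, all higher: Slc1a4, Slc1a5, Slc1a6, Slc38a2, Slc38a9, Slc6a9, Slc7a3, Slc7a6 and Slc7a7. The block also called 62.5% of all tested genes (46.6% higher, 15.9% lower), against 60.0% of the 25. Without both libraries numbered 1, 12 transporter genes were higher and 2 lower, where 53.8% of all genes were called. With the block and median-of-ratios scaling together, 9 transporter genes were higher and 8 lower (54.1% of all genes called, 26.4% higher and 27.7% lower). Of the 9 added genes, 5 were still higher: Slc1a6, Slc38a2, Slc7a3, Slc7a6 and Slc7a7. Another 6 were lower with that block and scaling but not with the block alone (Slc7a5, Slc6a8, Slc38a10, Slc38a7, Slc38a1 and Slc7a2), with log2 changes from -0.15 to -0.08.

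The 5 genes that were higher with the block under both scalings rose between same-numbered libraries in all 3 pairs. The block favours such genes, so this describes them and adds no separate support. Of the 25 expressed genes, 15 were higher in 3 of 3 pairs. Slc1a6 was at 7.63 ± 1.02 FPKM in water-treated cells and 9.97 ± 1.43 FPKM with the extract (SD, n = 3, log2 change 0.34, limma adjusted p = 0.0945 without and 5.98e-05 with the block). Slc7a3 was at 14.6, 18.5 and 17.6 FPKM in water-treated cells and 18.3, 21.9 and 23.3 FPKM with the extract, so that RCE replicate 1 lay among the control values (log2 change 0.31, limma adjusted p = 0.105 and 1.66e-04). Slc38a2 was at 68.2, 73.0 and 73.2 FPKM and at 74.3, 83.0 and 83.4 FPKM, without overlap (log2 change 0.16, limma adjusted p = 0.111 and 9.82e-04). Slc7a6 and Slc7a7, the light chains for cationic amino acids, went from 13.0 ± 1.32 to 14.7 ± 1.36 FPKM (log2 change 0.17, limma adjusted p = 0.234 and 9.43e-04) and from 2.76 ± 0.296 to 3.44 ± 0.379 FPKM (0.24, limma adjusted p = 0.0871 and 0.00553). Exons of Slc7a7 share 6.998% of their bases with Oxa1l on the opposite strand. Without RCE replicate 1 and without the block, Slc1a6, Slc38a2, Slc7a3 and Slc7a7 also passed, which gave 8 higher and 2 lower, or 40% of the 25, where 25.5% of all genes were called (18.7% higher, 6.81% lower). Without control replicate 1 in its place, none of these genes passed, and 4 transporter genes were higher and 2 lower. There Slc1a6 and Slc7a3 changed by 0.25 and 0.21, their lowest in any setting. Without RCE replicate 1 they changed by 0.46 and 0.40, their highest.

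**Figure D4:**
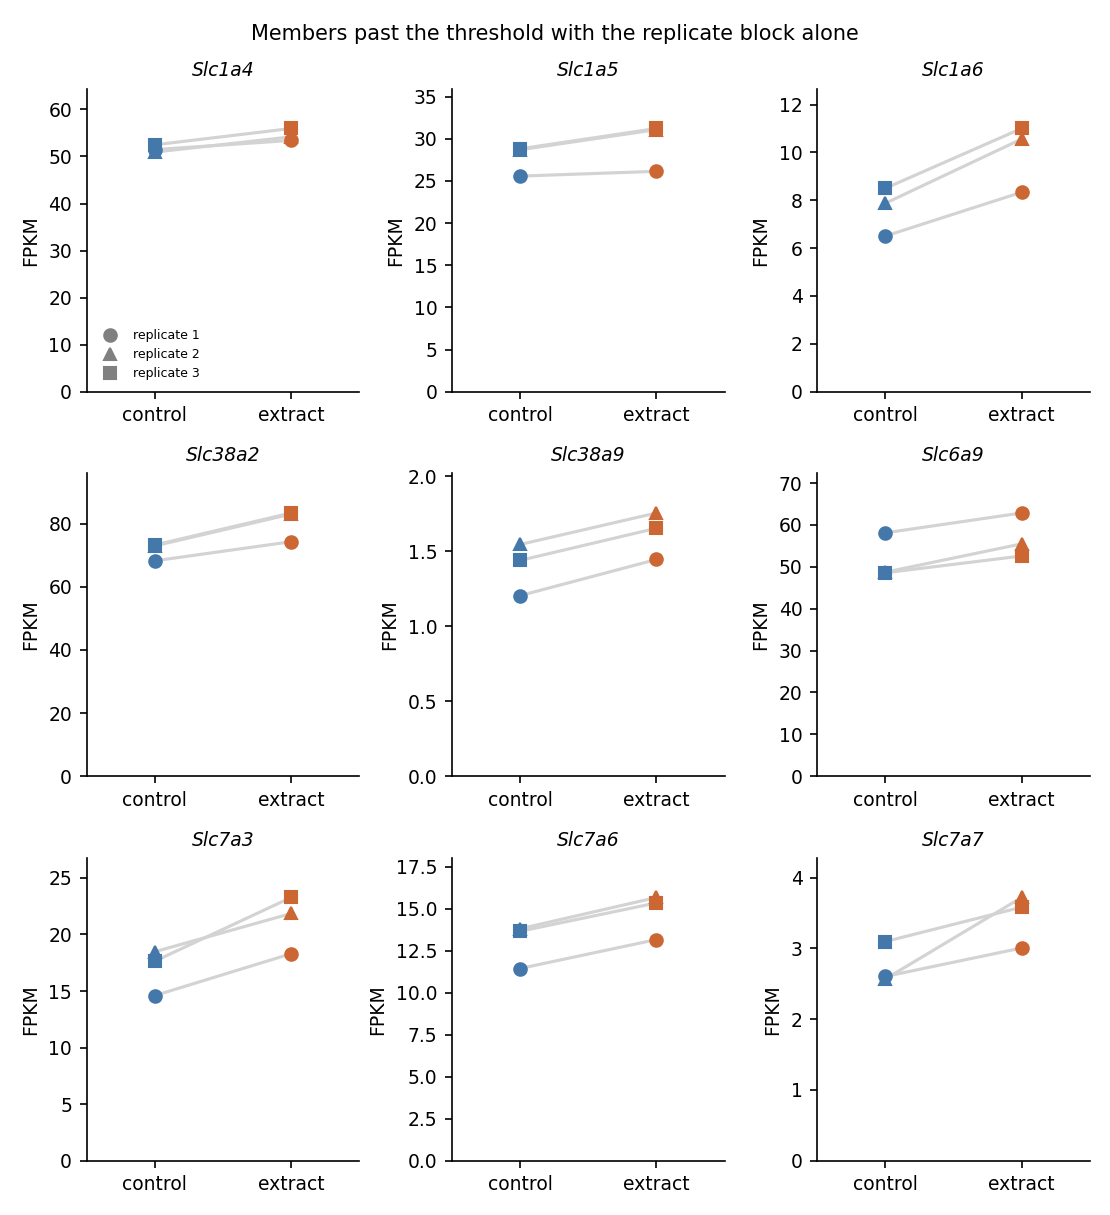
FPKM of the 9 genes that passed the threshold with the replicate block alone; grey lines join libraries with the same replicate number, marker shape gives the number, and y axes start at 0. In 6 of the 9 panels replicate 1 is the lowest library of both groups, and all lines rise from control to extract, a pattern that the block itself favours.

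By substrate, the cationic class had 5 of 7 genes expressed, 0 called by limma without the block and 3 higher with it, and a median change of 0.17. At an unadjusted p under 0.05, 2 of the 5 (Slc7a3 and Slc7a7) were higher. At least 24.3% of all tested genes, those called after adjustment, also met that threshold, so this count alone does not set the class apart. The true share is higher, since genes such as Slc7a3 met the unadjusted threshold without being called, and it was not counted. Its summed FPKM was 86.8 ± 2.57 in water-treated cells and 95.4 ± 4.17 with the extract (SD, n = 3), and the groups did not overlap. Systems A and N had 3 of 5 expressed, 1 higher and a median change of 0.16, with sums of 104.0 ± 2.98 and 115.9 ± 6.02 FPKM that did not overlap. Most of that sum was Slc38a2. Both separations ended with median-of-ratios scaling, where the cationic sums were 87.5, 89.8 and 90.8 in control replicates 1, 2 and 3 against 89.2, 93.9 and 94.2 with the extract. The scaled sums of systems A and N were 104.9, 107.7 and 108.6 against 107.3, 114.8 and 114.9. Large neutral amino acid carriers summed to 133.3 ± 1.58 and 128.6 ± 2.07 FPKM, without overlap and lower with the extract, also after that scaling, and 1 of 3 expressed genes was lower. That gene was Slc6a17, from 6.11 to 3.16 FPKM. Slc7a5, most of the sum, overlapped between the groups on the deposited values and was lower without overlap only after the scaling. Glycine and proline carriers had 3 of 6 expressed and 0 called by limma, also 0 at an unadjusted p under 0.05 and 1 (Slc6a9) with the block (64.8 ± 4.96 and 70.2 ± 4.75 FPKM), and the lysosomal and other Slc38 carriers had 4 of 6 expressed and 1 higher (75.2 ± 4.01 and 73.7 ± 5.13 FPKM), both with overlapping sums. Acidic amino acids had only Slc1a6. A sum over genes is given as a description and was not tested.

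All 58 genes summed to 664.9 ± 3.21 FPKM in water-treated cells and 696.9 ± 3.996 FPKM with the extract (SD, n = 3), or 0.196 to 0.210% of the FPKM of all genes in a library. The log2 ratio of these sums was 0.07, and -0.02 with median-of-ratios scaling, so its direction rests on the scaling.

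**Figure D5:**
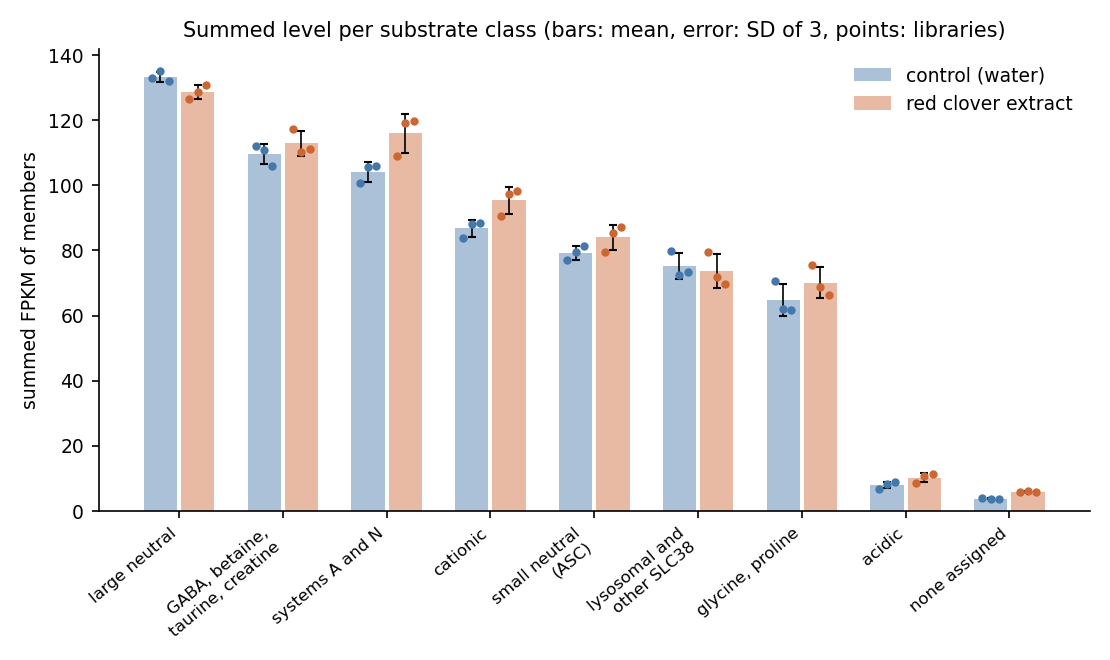
Summed FPKM of the transporter genes in each of the 9 substrate classes with an expressed gene (bars, mean of 3 libraries from 0; error bars, SD; points, libraries; blue control, orange red clover extract). The large neutral class is the highest in both groups, at 133.3 and 128.6 FPKM, and the acidic class reaches 8.02 and 10.3 FPKM.

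Slc3a2, the heavy chain (4F2hc) that carries the light chains to the surface, rose. It was at 123.0, 117.4 and 117.5 FPKM in water-treated cells and 138.2, 137.7 and 133.7 FPKM with the extract, without overlap (log2 change 0.19, SE 0.05, limma adjusted p = 0.0261). The call ended with median-of-ratios scaling (0.11, limma adjusted p = 0.211) and without control replicate 2 (limma adjusted p = 0.101), control replicate 3 (0.0978), RCE replicate 2 (0.114) or RCE replicate 3 (0.0739). Its 6 light chains, Slc7a11 included, summed to 138.3, 142.4 and 140.2 FPKM in water-treated cells and 136.8, 141.7 and 143.3 FPKM with the extract, of which Slc7a5 was 86.2 to 89.7%. The ratio of heavy chain to summed light chains was 0.824 to 0.889 in water-treated cells and 0.933 to 1.01 with the extract, a ratio within a library that scaling does not move.

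Around the transporters, 101 other genes of amino acid handling were tested, of which 12 were higher and 4 lower. That is 15.8%, under the background of 24.3%, with a median change of 0.07. With the block 65.3% were called, against 62.5% of all genes. Without a single library 14 of the 16 lost the call in at least 1 case, most often without control replicate 2 (14 lost), RCE replicate 2 (14), control replicate 3 (13) or RCE replicate 3 (12), less often without control replicate 1 (6) or RCE replicate 1 (3). Median-of-ratios scaling ended 10 of the 16. Sfxn3 and Depdc5 kept the call without each single library, and Depdc5 lost it with quantile normalization.

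Of 9 mitochondrial carriers tested, 2 were higher and 1 lower (5 and 1 with the block). Sfxn3, a sideroflexin of the serine carrier family, fell from 31.8 ± 1.01 to 25.05 ± 0.992 FPKM (SD, n = 3, log2 change -0.33, limma adjusted p = 0.00583). Its relative Sfxn1, the mitochondrial serine carrier, rose by 0.17, and Slc25a12, an aspartate and glutamate carrier, by 0.21. Both calls ended with median-of-ratios scaling. Of 5 lysosomal and vesicular carriers tested, 0 passed with limma. At an unadjusted p under 0.05, which at least 24.3% of all tested genes met, 2 of these carriers (Ctns and Mfsd12) were higher. That share is a lower bound, from the genes called after adjustment, and the full share was not counted. With the block 2 of these carriers were higher and 2 lower. Ctns, the lysosomal cystine exporter, had the highest level, at 17.2 ± 0.413 and 18.9 ± 0.649 FPKM (SD, n = 3, log2 change 0.14, limma adjusted p = 0.0725, and 0.00770 with the block).

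Of 31 tested genes of amino acid sensing by mTORC1, the kinase complex that couples growth to amino acid supply, 5 were higher and 1 lower (13 and 4 with the block). Those with the smallest p were Depdc5, a subunit of the inhibitory GATOR1 complex (log2 change 0.24), the leucine sensor homologue Sesn1 (0.27), Castor2 of the arginine sensor family (0.19) and the complex subunit Mlst8 (0.20). The last 2 calls ended with median-of-ratios scaling. The 1 lower gene was Fnip2 (log2 change -0.23, limma adjusted p = 0.0324). Its call held with that scaling (limma adjusted p = 0.0107) and ended in 5 of the fits without a single library. In the amino acid response, where the kinase GCN2 raises translation of the factor ATF4, 1 of 12 genes was higher and 1 lower (7 and 3 with the block). Atf5 was at 298.1 ± 18.2 and 368.7 ± 34.0 FPKM (SD, n = 3, log2 change 0.30, limma adjusted p = 0.0447, ended by median-of-ratios scaling), and Cebpb from 49.7 ± 6.42 to 34.4 ± 3.30 FPKM (log2 change -0.52, limma adjusted p = 0.0204). Atf4 itself was at 313.5 ± 12.9 and 349.6 ± 9.81 FPKM and did not pass (log2 change 0.16, limma adjusted p = 0.0813, and 0.00164 with the block).

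Among 18 enzymes of glutamine, asparagine and branched-chain amino acids, 2 were higher and 1 lower (9 and 5 with the block). Pycr1, the last enzyme of proline synthesis, changed by 0.17 and Dbt, a subunit of the branched-chain keto acid dehydrogenase, by 0.31, and both calls ended with median-of-ratios scaling. Glul, glutamine synthetase, fell from 19.5 ± 0.473 to 17.2 ± 0.398 FPKM (SD, n = 3, log2 change -0.17, limma adjusted p = 0.0315). Of 22 cytosolic aminoacyl-tRNA synthetase genes, 1 was higher and 0 lower (10 and 3 with the block): Wars, for tryptophan, went from 85.1 ± 0.620 to 99.6 ± 1.52 FPKM (log2 change 0.22, limma adjusted p = 0.0115, and 0.0589 with median-of-ratios scaling).

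Some cell type markers moved with the groups. Of the 10 fibroblast markers 2 were lower (Pdgfrb by -0.31 and Dcn by -0.22) and 0 higher in limma (6 lower and 1 higher, Fap, with the block), and their summed FPKM was 4142 to 4270 in water-treated cells and 3823 to 3915 with the extract. Over all tested genes 6.77% were lower and 17.6% higher in limma, and 15.9% lower and 46.6% higher with the block. Of the 5 skeletal muscle markers Des was higher (40.1 ± 3.60 and 53.1 ± 4.29 FPKM, SD, n = 3, log2 change 0.39, limma adjusted p = 0.0203, and 0.0715 with median-of-ratios scaling), while Myod1 was listed at 0 in every library and Myog, Myh3 and Ckm were at 0.019 FPKM or below. Summed FPKM of that list was 37.7 to 44.3 in water-treated cells and 49.5 to 57.8 with the extract. Of the neuronal and glial markers reported, Tubb3 was higher (10.3 ± 0.459 and 12.1 ± 0.433 FPKM, SD, n = 3, log2 change 0.21, limma adjusted p = 0.0258, and 0.143 with median-of-ratios scaling). Epithelial, endothelial and leukocyte lists had 1 tested gene each (Krt18, Kdr and Cd68). In limma 0 of these passed, 0 had an unadjusted p under 0.05, and with the block Krt18 was lower. Their sums were at most 2.89, 1.70 and 4.67 FPKM. Fewer cells of a type and less RNA per cell cannot be told apart in these bulk libraries, and the part of these markers in the transporter changes was not tested.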

How the data were processed

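Poly(A) RNA libraries of 6 samples were sequenced with a stranded kit, per the labels' protocols. The deposited values are FPKM per gene, made by the authors with STAR 2.5.4, Cufflinks and Cuffdiff 2.2.1 on mm10, per the submitters' processing notes. Whether counting used strand is not given in the sources used here. Transporter genes were taken by symbol, and substrate classes, neighbouring pathways and markers from written lists. The members and lists were chosen with earlier results of these data known, and the class of Slc6a21 was set after its values were seen.

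The 10870 genes that averaged 1 FPKM or more across all libraries were tested on log2(FPKM + 1) with limma 3.58.1 in R 4.3.3, with a mean-dependent prior, Benjamini-Hochberg adjustment over all of them and a threshold of 0.05. The code was tested on simulated data. Alternatives were 16 refits: other pseudocounts and filters, scalings, the replicate block, and left-out libraries. The block with median-of-ratios scaling, and the overlap of groups after that scaling, were chosen after seeing the data. Same-numbered libraries deviated together (correlations 0.92, 0.62 and 0.68), so the numbers were taken as pairs, although control replicates 2 and 3 correlated more with the crossed RCE replicates (0.77 and 0.72).

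Depth was recovered from low FPKM of genes with 1 transcript, where 99.8 to 100% of values were whole to within 0.1 fragment. Every called gene was named with its values in each library, every other gene at 1 FPKM or more by means and change, low genes by range, and up to 4 called genes per neighbouring list. Fnip2 was added as the 1 lower gene of its list after its values were seen. Promoters came from RefSeq (GRCm38.p6). One marker of the neuronal and glial list is not reported here.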

Additional observations from a re-analysis of the deposited data

How the results depend on the processing

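The calls of Slc6a17, Slc43a3 and Slc38a4 held in the 15 alternatives that tested them. For all genes 2646 were called, against 1352 at a mean of at least 5 FPKM, 1642 with quantile normalization, 6790 with the replicate block, 5841 without both libraries numbered 1, 5884 with the block and median-of-ratios scaling, and 1076 to 2768 without a single library. Transporter genes higher numbered 4, against 1 at 5 FPKM, 2 with median-of-ratios scaling, 13 with the block, 12 without both libraries numbered 1, 9 with block and scaling, and 2 to 8 without a single library. Genes lower numbered 2, against 0 at 5 FPKM (limma, with 15 tested), 8 with block and scaling, and 1 to 2 without a single library. Their median change of 0.08 was 0.0022 with no filter, 0.00065 with median-of-ratios scaling, with or without the block, and 0.058 to 0.127 without a single library. Neighbouring genes called numbered 16, against 6 with quantile normalization, 66 with the block, 52 without both libraries numbered 1, 46 with block and scaling, and 2 to 15 without a single library. Expressed genes numbered 15 at 5 FPKM, and the log2 ratio of summed FPKM was -0.019 with median-of-ratios scaling.

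Signs reversed for genes near 0. With median-of-ratios scaling, with or without the block, Slc1a4 was at -0.0085, Slc7a1 at -0.030, Slc38a1 at -0.081, Slc36a1 at -0.076 and Slc36a4 at -0.025. Quantile normalization gave -0.0064 for Slc38a1, -0.074 for Slc36a1 and -0.056 for Slc36a4. Without control replicate 1, Slc38a7 was at 0.053, Slc36a1 at -0.017 and Slc36a4 at -0.00021. Without RCE replicate 2, Slc38a7 was at 0.018 and Slc38a1 at -0.0018. Without RCE replicate 3, Slc38a7 was at 0.032, Slc38a1 at -0.0066, Slc36a1 at -0.0019 and Slc36a4 at -0.0040. Without both libraries numbered 1, Slc36a1 was at -0.016. Over the fits without a single library Slc38a7 ranged from -0.093 to 0.053, Slc38a1 from -0.0066 to 0.017 and Slc36a1 from -0.017 to 0.0135. At a mean of at least 5 FPKM, 7816 genes were tested in place of 10870. Of the called transporter genes only Slc6a6 was still tested there. Atf5 was tested with both filters and lost its call at 5 FPKM. Its call also ended with no filter on low values (limma adjusted p = 0.0707), and in 8 of the 16 alternatives in all. The cause of the differences between settings was not tested. Depth limits genes below 0.1 FPKM, which rest on few fragments.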

Other observations

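Below the filter, Slc17a6, a vesicular glutamate carrier, was at 0.196, 0.205 and 0.245 FPKM in control and 0.053, 0.045 and 0.022 FPKM with the extract, and the groups did not overlap. Slc1a7 (EAAT5), a glutamate carrier of the retina, was at 0.117, 0.101 and 0.081 FPKM in control and 0.036, 0.062 and 0.047 FPKM with the extract. It was the 1 gene called among the 24 transporter genes below 1 FPKM that limma tested with no filter on low values (log2 change -0.07, adjusted p = 0.0337). Over all genes 16.6% were called in that fit. Both were singled out after their values were seen.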
